A study of Mus musculus with 3 samples.

Results

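Immediate early genes are transcribed within minutes of a stimulus, without new protein synthesis, and most of their messages are short-lived. Growth factors, stress and the enzymatic dissociation of a tissue are known to induce them, largely through MAP kinases, serum response factor and CREB. Their products are mainly transcription factors, such as the Fos and Jun proteins that pair to form AP-1, together with feedback regulators that switch the same signals off. The set described here holds 10 such genes of 19938 genes measured: the transcription factor genes Fos, Fosb, Junb, Jund, Atf3 and Egr1, the response genes Ier2 and Ier3, and the feedback regulators Dusp1 and Zfp36. They were chosen by symbol, and each had 1 probe set that the platform annotation assigns to that gene alone.

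The study compared sorted pancreatic cells of adult C57BL/6 mice over 6 weeks old on 3 arrays, 1 array for each group. Beta cells were pooled from 3 untreated mice with Fbw7 +/+ and MIP-GFP, whose beta cells carry a constitutive green fluorescent label. Fbw7 KO ductal cells were pooled from 6 tamoxifen-treated mice that carried Fbw7 F/F (both alleles floxed) with Ck19-CreERT and R26-LSL-YFP. Fbw7 WT ductal cells were pooled from 6 mice with Fbw7 +/+ and both of these transgenes that received the same treatment. Tamoxifen was given on 5 days and cells were collected 7 days after the last dose, so that Cre recombinase in cytokeratin 19-expressing cells had switched on the yellow label in both ductal groups. For each array 30000 cells were sorted and 18 ng of RNA was amplified. The beta cell array differs from both ductal arrays in cell type, label, tamoxifen and transgenes together, and these cannot be told apart. All cells were sorted as single cells, the labels do not say how the tissue was dissociated, and an undissociated pancreas was not analysed here. The levels below therefore do not separate induction during preparation from the level in the tissue.

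The values are the authors' log2 intensities. With 1 array per group there is no replicate check, no spread and no p-value, and the number of arrays limits the precision. A gene entered a comparison where the higher of its 2 levels was above that array's floor, the median of single-gene probe sets (5.30 in beta cells, 5.24 in KO ductal and 5.23 in WT ductal cells). The arrays were not on 1 shared distribution, with an SD over probe sets of 1.57 in beta cells, 1.97 in KO and 2.02 in WT ductal cells. Of 2 probe sets for the targeted gene, Fbxw7, one read 4.95 in all 3 arrays and the other 7.00 in beta cells, 5.71 in KO and 6.32 in WT ductal cells; the labels do not place them relative to the floxed exons, so they check no deletion. Marker levels differed between the arrays, but duct markers did not set WT ductal apart from beta cells under every scaling. Of 9 duct markers above the floor, 5 were lower, 3 higher and 1 identical in beta against WT ductal cells. Their median difference was -0.78 as deposited and -0.06 after quantile normalization. Of 13 leukocyte markers, 9 were above the floor in beta cells and 2 in each ductal array (mean log2 level 5.93 in beta, 4.42 in KO and 4.42 in WT ductal cells). Of 11 endothelial markers, 9 were above the floor in beta cells and 4 in each ductal array (mean levels 6.05, 5.47 and 5.47). Mean levels of 11 mesenchymal markers were 6.67, 7.93 and 8.65, of 10 duct markers 6.52, 8.44 and 7.22, of 10 acinar markers 10.04, 9.68 and 8.56, and of 12 beta cell markers 6.61, 4.87 and 4.58 in beta, KO and WT ductal cells. The part of these cells in the values below was not tested, and in a pool fewer cells of a type and less RNA per cell cannot be told apart.

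Each of the 10 genes read above the 75th percentile of single-gene probe sets on its array (6.02 in beta, 6.41 in KO and 6.49 in WT ductal cells), where 24.4%, 24.2% and 24.2% of all genes did. Levels of different genes come from different probes and are not ranked against each other.

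**Figure D1:**
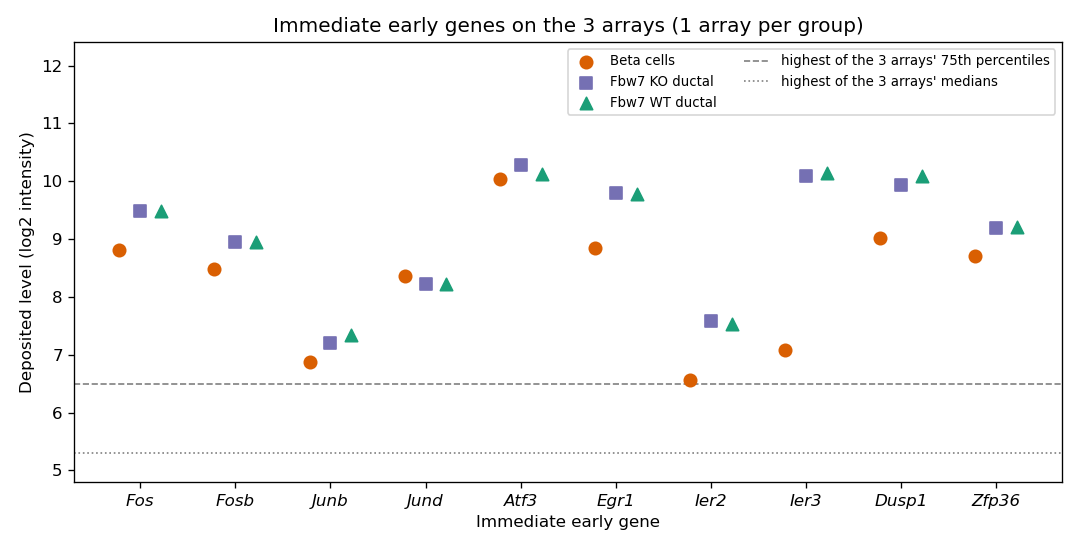
Deposited log2 intensity (vertical axis) of each of the 10 immediate early genes (horizontal axis) in beta cells, Fbw7 KO ductal cells and Fbw7 WT ductal cells, 1 point per array. The ductal points lie side by side for every gene, the beta cell point is lower for 9 genes, and the gap is widest for Ier3 (7.09 in beta cells, 10.10 in KO and 10.14 in WT ductal cells).

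Fos and Fosb encode the Fos partners of AP-1. Fos read 8.82 in beta cells, 9.48 in KO ductal cells and 9.48 in WT ductal cells. Fosb read 8.48 in beta cells, 8.94 in KO ductal cells and 8.94 in WT ductal cells. Both genes thus held exactly the same deposited value in the ductal arrays, as did 16792 of 35556 probe sets. Both deposited values were lower in beta cells, Fos 1.58-fold and Fosb 1.38-fold. After quantile normalization both were higher in beta than in WT ductal cells (Fos 0.48, Fosb 0.69).

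Junb and Jund encode Jun subunits of AP-1. Junb, a subunit that is itself induced, read 6.87 in beta cells, 7.20 in KO ductal cells and 7.34 in WT ductal cells. Jund, the Jun protein gene with the most constant expression in many tissues, read 8.36 in beta cells, 8.22 in KO ductal cells and 8.22 in WT ductal cells. As deposited, Jund was the 1 member with its highest level in beta cells, 1.10-fold above either ductal array, and Junb was 1.39-fold lower in beta than in WT ductal cells. Neither difference reached 2-fold, and after quantile normalization both genes were higher in beta than in WT ductal cells (Junb 0.39, Jund 1.29).

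Atf3 encodes a stress-induced factor of the ATF/CREB family and Egr1 a zinc finger factor. Atf3 read 10.04 in beta cells, 10.28 in KO ductal cells and 10.12 in WT ductal cells, the smallest gap between beta and WT ductal cells of any member (1.05-fold lower in beta cells). Egr1 read 8.84 in beta cells, 9.80 in KO ductal cells and 9.78 in WT ductal cells. As deposited, Egr1 was 1.92-fold lower in beta than in WT ductal cells, just short of the 2-fold threshold. After quantile normalization both genes were higher in beta than in WT ductal cells (Atf3 0.78, Egr1 0.18).

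Ier2, a nuclear protein gene, and Ier3, which encodes a regulator of cell survival and ERK signalling, are both named for their rapid induction. Ier2 read 6.57 in beta cells, 7.58 in KO ductal cells and 7.53 in WT ductal cells. Ier3 read 7.09 in beta cells, 10.10 in KO ductal cells and 10.14 in WT ductal cells. Ier3 was 8.26-fold lower in beta than in WT ductal cells and 8.03-fold lower than in KO ductal cells, and 2.94% and 2.19% of all genes tested had a more negative difference. Ier2 lay at the 2-fold threshold, 1.95-fold lower in beta than in WT and 2.02-fold lower than in KO ductal cells. After quantile normalization the beta minus WT ductal difference was -0.18 for Ier2 and -2.05 for Ier3.

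Dusp1 encodes a phosphatase that inactivates MAP kinases, and Zfp36 encodes tristetraprolin, which promotes decay of messages with AU-rich elements. Dusp1 read 9.02 in beta cells, 9.93 in KO ductal cells and 10.09 in WT ductal cells. Zfp36 read 8.70 in beta cells, 9.19 in KO ductal cells and 9.20 in WT ductal cells. The deposited beta cell value was the lowest for both, by 2.11-fold against WT ductal cells for Dusp1 and 1.41-fold for Zfp36. After quantile normalization the beta minus WT ductal difference was -0.04 for Dusp1 and 0.65 for Zfp36.

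The promoters of 3 members are shown. Those of Zfp36 and Dusp1 carry letters of response elements through which such genes are known to be induced. That of Fosb is shown only for an Egr site. RefSeq windows of build GRCm38.p6, from 250 bases before to 50 after a gene's start, were matched for 8 of the 10 members. Egr1 and Ier2 had no window, and bases outside the windows were not searched. A member without a match may therefore still carry the element. The core of the serum response element, searched on both strands, was found in 1 member window, that of Zfp36, and in 1.63% of 32851 windows of the same length. The cAMP response element TGACGTCA, which reads the same on both strands, was found in the Dusp1 window and in 1.79% of windows. The AP-1 site TGANTCA, with C or G at N, was found in 0 member windows and 5.20% of all windows. The Egr site GCGGGGGCG, searched on both strands, was added after the windows had been read. It was found in the windows of Fosb and Zfp36 and in 2.91% of all windows. Because the site was picked from these windows, the member count cannot be compared with that share. The 150 bases before each start follow, 5′ to 3′ on the gene's own strand, with these matches in capitals. In Zfp36 (chr7:28379229-28379378, minus strand) the Egr letters come first and the serum response core second. In Dusp1 (chr17:26508473-26508622, minus strand) the capitals mark the cAMP response element, and in Fosb (chr7:19310046-19310195, minus strand) the Egr letters.
Zfp36: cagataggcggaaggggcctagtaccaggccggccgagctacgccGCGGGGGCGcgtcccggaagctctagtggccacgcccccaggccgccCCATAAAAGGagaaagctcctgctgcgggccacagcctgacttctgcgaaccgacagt
Dusp1: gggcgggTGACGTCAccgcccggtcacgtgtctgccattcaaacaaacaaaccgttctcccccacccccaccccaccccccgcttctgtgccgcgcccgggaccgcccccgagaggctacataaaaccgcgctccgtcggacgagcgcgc
Fosb: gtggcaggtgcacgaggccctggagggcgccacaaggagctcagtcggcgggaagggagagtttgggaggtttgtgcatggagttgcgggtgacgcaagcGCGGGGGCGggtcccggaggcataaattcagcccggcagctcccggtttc
The match starts at position -58 for the serum response core and -105 for the Egr letters of Zfp36, at -143 for Dusp1 and at -50 for Fosb, where -1 is the base before the start. These are matches of letters, and binding was not measured.

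The comparison of KO with WT ductal cells concerns Fbw7, the ubiquitin ligase subunit that marks Jun, Myc and other proteins for degradation. These arrays also differed in marker levels. Duct markers had means of 8.44 in KO and 7.22 in WT ductal cells, and mesenchymal markers 7.93 and 8.65. With 1 array per group, deletion of Fbw7 and cell content of the pools cannot be told apart. Deposited values of the immediate early genes differed little. Of the 10 members, 0 were at least 2-fold higher in KO cells and 0 as much lower, beside 1.43% and 1.81% of 10052 genes tested. Beside 4 members lower by any amount, 35.3% of genes tested were lower. Atf3 had the most positive difference, 0.16 on the log2 scale (1.12-fold higher in KO cells), and Dusp1 the most negative, -0.16. Ier2 (0.05) and Egr1 (0.02) were the other members higher in KO cells; Junb (-0.14), Ier3 (-0.04) and Zfp36 (-0.01) were lower. Fos, Fosb and Jund were identical in both arrays, as were 48.3% of genes tested, and 67.0% of genes tested lay within the widest member difference. A narrow range was thus common to most genes in this pair of arrays. The median difference was 0 for the members and 0 for all genes. Under quantile normalization the member median was 0.12 against 0.01 for all genes, and no member was 2-fold apart under any scaling tried.

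**Figure D2:**
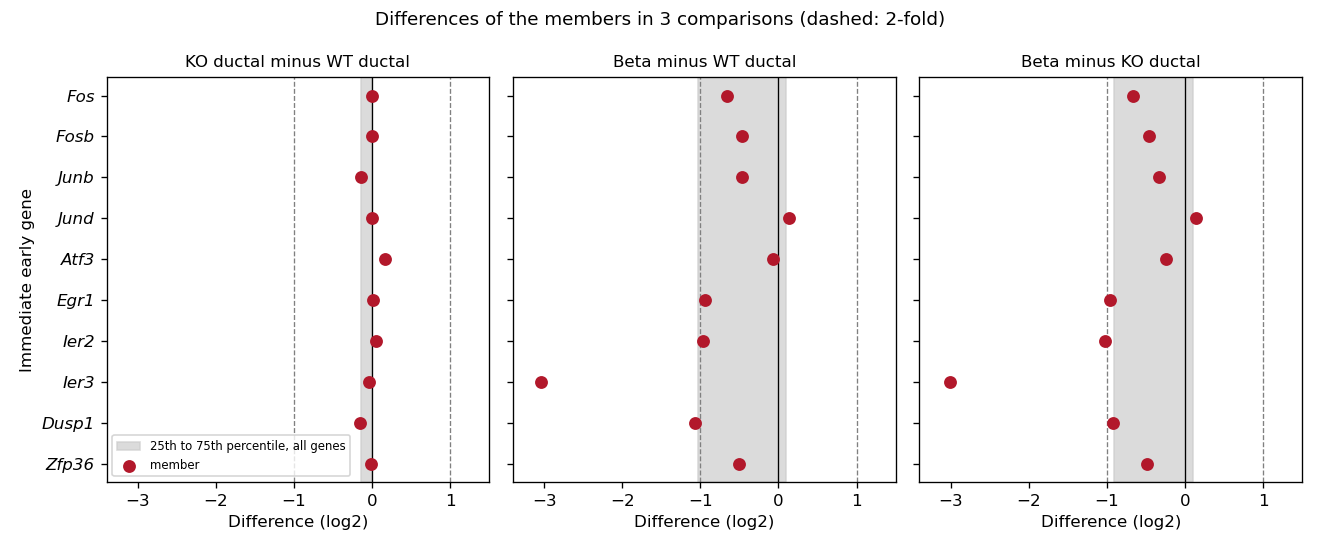
Difference of log2 levels (horizontal axis) of each immediate early gene (vertical axis) in KO minus WT ductal, beta minus WT ductal and beta minus KO ductal cells; the grey band spans the 25th to 75th percentile of all genes tested and dashed lines mark 2-fold. KO minus WT differences lie between -0.16 and 0.16, and in the beta cell comparisons Ier3 stands far from the other members, at -3.05 and -3.01.

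Against WT ductal cells, beta cells had lower deposited levels of 9 of the 10 genes, beside 53.4% of genes tested. The median difference was -0.58, beside -0.10 over all genes tested. Dusp1 (-1.07) and Ier3 (-3.05) were at least 2-fold lower, 2 of 10 members, where 25.6% of 11222 genes tested were; 0 members were 2-fold higher, beside 6.33%. Egr1 (-0.94) and Ier2 (-0.97) lay just inside 2-fold, Fos was at -0.66, Zfp36 at -0.50, Junb at -0.47, Fosb at -0.46, Atf3 at -0.07 and Jund at 0.14. Among the genes above the 75th percentile on either array, a class to which all members belong, the median was -0.69, 65.4% were lower, 41.0% at least 2-fold lower and 6.21% at least 2-fold higher. The members other than Ier3 had a median of -0.50. As deposited, the members' shares past 2-fold were therefore no higher than those of all genes.

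The sign of these differences depended on the scaling for most members. After quantile normalization the member median was 0.43 (all genes 0.09), and 7 members were higher in beta cells by any amount, beside 54.8% of genes tested. Jund (1.29) was then the 1 member at least 2-fold higher and Ier3 (-2.05) the 1 member as much lower. With a trend on the mean level removed, the median was 0.69 (all genes 0.02), and Fosb (1.09), Jund (1.66), Atf3 (1.25) and Zfp36 (1.04) were at least 2-fold higher in beta cells while Ier3 was 2.82-fold lower. With each array centred on its median, 4 members were at least 2-fold lower, Egr1 and Ier2 joining Dusp1 and Ier3. The shares of all genes past 2-fold were 10.6% higher and 17.9% lower after quantile normalization, 8.05% and 15.9% with the trend removed and 5.41% and 27.1% with centring. Of all genes past 2-fold, 19.8% were higher as deposited, 37.2% after quantile normalization and 33.6% with the trend removed; these moved the median of all genes by 0.19 and 0.11. Across the deposited values and these 3 scalings, Ier2 and Ier3 were lower and Jund was higher in beta cells throughout, and the other 7 members changed sign. Ier3 alone among the members was at least 2-fold lower under every one of them. Ier2 was at -0.18 after quantile normalization and -0.07 with the trend removed.

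**Figure D3:**
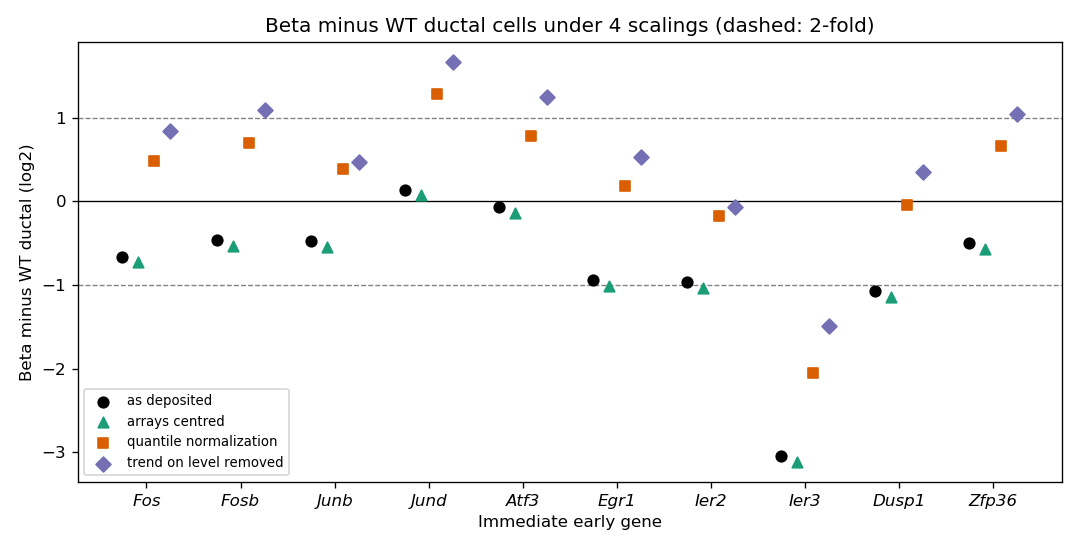
Beta minus WT ductal difference (log2, vertical axis) of each immediate early gene (horizontal axis) as deposited, with arrays centred, after quantile normalization and with a trend on mean level removed; dashed lines mark 2-fold. Ier3 is below -1 under all 4 scalings (2.82-fold to 8.67-fold lower), Jund is above 0 under all 4 (0.07 to 1.66), and Fos, Fosb, Junb, Atf3, Egr1, Dusp1 and Zfp36 cross 0.

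Against KO ductal cells the beta cell array, which both comparisons share, gave similar member values. The median was -0.58 beside -0.04 over all genes, and 9 members were lower beside 51.0% of genes tested. Ier2 (-1.02) and Ier3 (-3.01) were at least 2-fold lower, 2 of 10 beside 22.8% of 11175 genes tested, and 0 were 2-fold higher beside 5.09%. Dusp1 (-0.92) and Egr1 (-0.96) lay inside 2-fold, and Jund was again the 1 member higher, at 0.14. After quantile normalization the median was 0.37 and 8 members were higher by any amount, beside 56.5% of genes tested. Then 1 member was at least 2-fold higher, beside 9.38% of genes tested, and 1, Ier3 (-2.08), as much lower, beside 16.9%.

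Other genes of the same response were described from fixed lists, chosen by function with earlier results of these data known. The list names are loose. The induced transcription factors include the kinase gene Sik1, and the feedback regulators include the survival gene Mcl1. The secreted factors include the enzyme gene Ptgs2 and the receptor gene Plaur. Between KO and WT ductal cells few of them were 2-fold apart. The other AP-1 and partner bZIP genes (11 above the floor) had 0 genes 2-fold apart; Jun, the founding Jun member, read 9.60 in KO and 9.58 in WT ductal cells, and Atf2, a kinase-activated bZIP factor, was at 0.16. The other induced transcription factors (19 above the floor) also had 0, with the nuclear receptor gene Nr4a3 at -0.77, Nfil3 at -0.68 and Myc at -0.01. Of these 19, 9 were lower in KO cells by any amount and 2 higher, beside 35.3% of all genes tested lower. Their median was 0.05 after quantile normalization. Among 30 other feedback regulators 1 was at least 2-fold lower and 0 higher: Dusp4, an ERK phosphatase, read 5.14, below the floor, in KO cells and 6.64 in WT cells, at least 2.65-fold lower. Zfp36l2, a Zfp36 relative, was at 0.82 and the kinase gene Sgk1 at 0.48.

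Of the induced secreted factors, heat shock genes and upstream signalling genes, 3 genes passed 2-fold in the same comparison. Ccn1, a matricellular protein and target of serum response factor and Yap, read 9.69 in KO and 8.68 in WT ductal cells (2.01-fold higher). Thbs1, the matrix protein thrombospondin, read 7.74 in KO and 8.95 in WT ductal cells (2.30-fold lower; -0.98 after quantile normalization). Hspb8, a small heat shock protein gene, read 6.35 in KO and 7.49 in WT ductal cells (2.22-fold lower; -0.92 after quantile normalization). The receptor gene Egfr was at -0.98. These were 1 of 14 secreted factors higher and 1 lower, 1 of 14 heat shock genes lower and 0 of 18 signalling genes past 2-fold, beside 1.43% of all genes tested higher and 1.81% lower, with list medians of 0, -0.09 and -0.07. After quantile normalization only the Ccn1 difference was past 2-fold in these 3 lists. As deposited, 6 of 14 secreted factors, 9 of 14 heat shock genes and 11 of 18 signalling genes were lower in KO cells by any amount. In the same order 3, 3 and 0 were higher. Of all genes tested 35.3% were lower. Short of 2-fold, the chemokine genes Ccl2 and Cxcl1 were at -0.91 and -0.74. After quantile normalization the 3 list medians were 0.004, -0.01 and 0.01. Marker lists moved between the same arrays. Of 11 mesenchymal markers 5 were at least 2-fold lower in KO cells (2 after quantile normalization), and 6 of 8 acinar and 5 of 9 duct markers above the floor were at least 2-fold higher (6 of each after quantile normalization). Their part in these values was not tested.

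In beta minus WT ductal cells the related lists had medians below 0 as deposited, some below that of the members; differences between lists were not tested. Their counts are set beside 25.6% of all genes tested at least 2-fold lower and 6.33% higher as deposited, 17.9% and 10.6% after quantile normalization, and 15.9% and 8.05% with the trend removed. Of 20 genes in the list of other induced transcription factors 9 were at least 2-fold lower and 0 higher (median -0.75). The lowest were Nfil3 (at least 6.21-fold lower) and Bhlhe40 (at least 4.34-fold lower), and the kinase gene Sik1 (-1.32) was among the 9. Of 31 other feedback regulators 15 were at least 2-fold lower and 0 higher (median -0.93). Zfp36l1, a paralog of Zfp36 with the same role in message decay, read 6.20 in beta cells, 9.997 in KO and 9.94 in WT ductal cells, 13.4-fold lower in beta than in WT ductal cells, against 1.41-fold for Zfp36. Nfkbia, the NF-kappaB inhibitor gene, was 6.42-fold lower. Both stayed at least 2-fold lower under all 4 scalings (Zfp36l1 -2.28 to -3.81, Nfkbia -1.25 to -2.75). Both lists' counts depended on the scaling. Of the induced transcription factors 3 were at least 2-fold lower after quantile normalization (median -0.24) and 3 with the trend removed (median -0.19), with 0 higher in either. Of the feedback regulators 8 were lower and 1 higher after quantile normalization (median -0.31), and 5 lower and 1 higher with the trend removed (median -0.28).

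The AP-1 partners and the secreted factors held genes past 2-fold in both directions as deposited. Among 12 other AP-1 and partner bZIP genes 4 were at least 2-fold lower in beta cells and 1 higher (median -0.09), against 2 lower and 1 higher after quantile normalization (median 0.36) and 0 lower and 2 higher with the trend removed (median 0.36). Atf2 was at -1.87 and Atf4, the integrated stress response factor, was 2.82-fold lower, whereas Batf, an AP-1 factor of leukocytes, was the 1 counted as higher on its measured level and at least 1.82-fold higher against the floor. Jun read 8.57 in beta, 9.60 in KO and 9.58 in WT ductal cells, a difference of -1.01 from WT that became 0.15 after quantile normalization. Of 15 secreted factors 6 were at least 2-fold lower and 2 higher (median -0.18), against 5 and 3 after quantile normalization (median 0.02) and 4 and 3 with the trend removed (median 0.04). The chemokine genes Ccl2 (23.3-fold) and Cxcl1 (16.4-fold) and the cytokine gene Il6 (at least 6.11-fold) were lower in beta cells. In the same comparison 8 of 11 mesenchymal markers were at least 2-fold lower (median -1.92), and 6 after quantile normalization (median -1.17). The cytokine genes Il1b (at least 5.13-fold) and Tnf (at least 3.00-fold) were higher, on the array where 9 of 13 leukocyte markers were above the floor. The part of leukocytes or mesenchymal cells in these values was not tested.

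**Figure D4:**
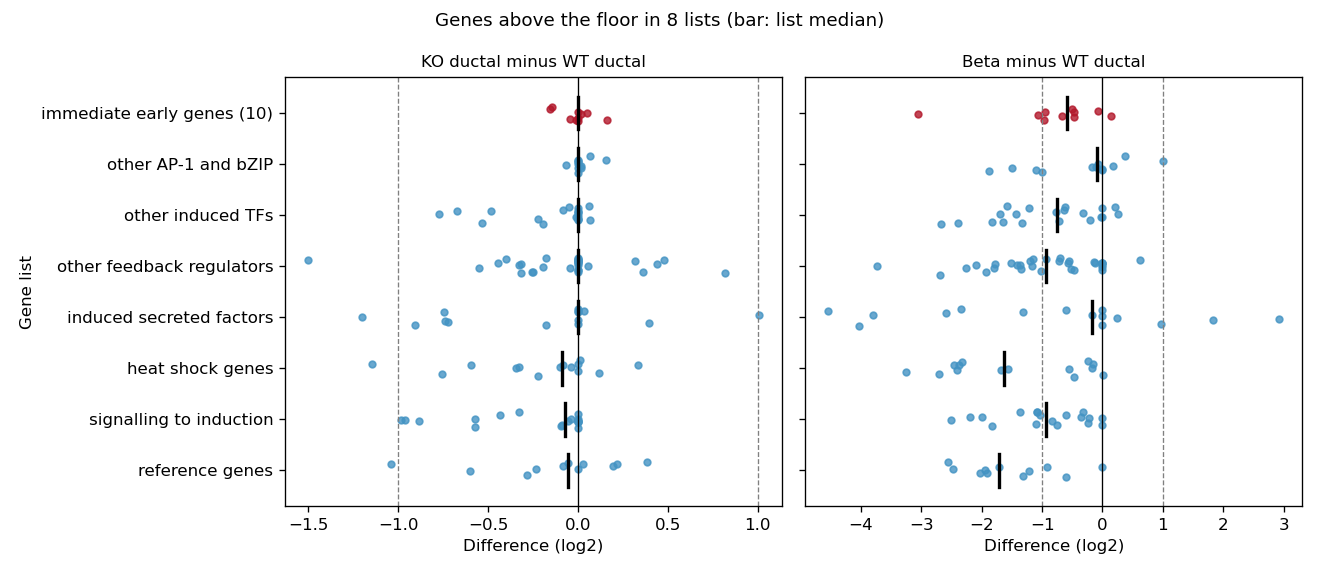
Difference of log2 levels (horizontal axes) of genes above the floor in the 10 members and 7 related or reference lists (vertical axis), for KO minus WT ductal and beta minus WT ductal cells; each point is 1 gene and bars mark list medians. In the left panel member points lie within 0.16 of 0, and in the right panel, as deposited, heat shock and reference genes have the lowest medians, -1.62 and -1.72, beside -0.58 for the members.

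Heat shock genes and reference genes had deposited medians below that of the members in beta minus WT ductal cells, a difference that was not tested. Of 14 heat shock genes 8 were at least 2-fold lower and 0 higher (median -1.62), among them Hspb1 (9.54-fold) and the mitochondrial chaperone gene Hspd1 (-2.70). Hspa1a, the inducible Hsp70 gene, read 8.01 in beta and in KO ductal cells and differed from WT ductal cells by 0.01, and the co-chaperone gene Dnaja1 was at -0.15. Of 11 reference genes, kept for their usual constancy, 8 were at least 2-fold lower (median -1.72), with the actin gene Actb at 10.90 in beta, 12.38 in KO and 12.62 in WT ductal cells. After quantile normalization 6 heat shock genes were at least 2-fold lower and 1 higher (median -0.64), and 7 reference genes were lower (median -1.25). With the trend removed 4 heat shock genes were lower and 2 higher (median -0.35), and 3 reference genes were lower (median -0.73). Of 18 signalling genes 9 were at least 2-fold lower (median -0.94), led by Egfr (-2.50) and the kinase gene Mapk9 (-2.19), and 0 were 2-fold higher, against 4 lower after quantile normalization (median -0.39) and 4 with the trend removed (median -0.23).

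The members' typical profile was shared by genes outside the response. Over the 3 arrays, the median centred level of the members was -0.39 in beta cells, 0.19 in KO and 0.21 in WT ductal cells. By Euclidean distance to it among 10719 other genes, the nearest were Emc4 (0.016), Fbxo38 (0.016), Vasn (0.018), Tyms (0.019) and Ift122 (0.019). With 3 arrays many genes have such a profile.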

How the data were processed

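RNA of 3 pools of sorted mouse cells was measured on 1 array each. The deposited values are log2 intensities per probe set, made by the authors with RMA per the submitters' processing notes, with no version; the labels do not say whether the arrays were normalized as 1 set. Of 35556 probe sets, 21789 had 1 gene in the platform annotation, and 21698 of these matched a RefSeq gene ID of GRCm38.p6; for genes with several, the probe set with the highest mean was used (19938 genes). Differences of log2 levels were computed for 3 pairs of arrays and counted at 2-fold. "At least" marks a fold taken against the floor. The members and lists were chosen with earlier results of these data known. Named genes are the members, genes from the 2 highest and 2 lowest of each list in a comparison, and Jun, Myc, Fbxw7 and Actb. Not every gene so picked is given for every comparison. Sik1, Mcl1, Ptgs2 and Plaur were named to show what their lists hold. Alternatives were other scalings, floors, folds and probe set rules; scaling to reference genes was added after seeing the data. Python 3.11.15, numpy 2.4.6, pandas 2.3.3, statsmodels 0.14.6 (loess span 0.3) and matplotlib 3.10.9 were used.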

Additional observations from a re-analysis of the deposited data

How the results depend on the processing

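Between KO and WT ductal cells, the counts of members past the fold stayed at 0 in both directions and the member median between -0.01 and 0.12 under every alternative run. The comparisons with beta cells depended on scaling, and the cause was not tested. For beta minus WT ductal cells, where 0 members were higher, 2 lower and the median was -0.58, quantile normalization gave 1 higher, 1 lower and 0.43; the trend removed gave 4, 1 and 0.69; centring gave 4 lower; and scaling to the 11 reference genes, chosen after seeing the data, gave 6, 1 and 1.14, when 67.4% of all genes were at least 2-fold higher. For beta minus KO ductal cells, from 0, 2 and -0.58, these gave 1, 1 and 0.37 (quantile), 1, 1 and 0.51 (trend), and 4, 1 and 0.91 (reference genes). At 1.5-fold 5 members were lower in both comparisons, beside 35.9% (WT) and 33.2% (KO) of all genes, and at 4-fold 1 member, beside 10.3% and 8.19%. The Dusp1 difference between beta and WT ductal cells was 0.35 with the trend removed and 0.64 on the reference scale. On the latter scale the Ier2 difference of beta cells was 0.75 from WT and 0.47 from KO ductal cells. Ier3 stayed at least 2-fold lower in beta cells on the reference scale too (-1.33 and -1.52). Floors, the mean of probe sets and raising levels to the floor changed no member value. They could not, because each member has 1 probe set and read above the 75th percentile on every array. Over all genes, KO minus WT ductal cells had 182 genes at least 2-fold lower as deposited and 93 after quantile normalization. Beta minus WT ductal cells had 710 higher as deposited, 1189 after quantile normalization, 1478 without a floor, 394 with the floor at the 75th percentile and 327 with levels raised to the floor, and 2875 lower as deposited against 1783 with the trend removed. Beta minus KO ductal cells had 569 higher as deposited, and 1048, 1207, 318 and 258 under the same 4 settings, and 2552 lower against 1696. No paired analysis was possible because each group has 1 array. At 1.5-fold 282 genes were higher and 728 lower in KO than in WT ductal cells, and at 4-fold 41 and 15; beta minus WT ductal cells had 1558 higher and 4025 lower at 1.5-fold and 102 and 1151 at 4-fold, and beta minus KO ductal cells 1439 and 3715, and 63 and 915. Saturation and signal over background cannot be read from the deposited values.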
